A study of Mus musculus and Rattus norvegicus with 26 samples.

Results

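Reelin is a large secreted glycoprotein that positions migrating neurons and later tunes excitatory synapses. It binds 2 receptors of the low density lipoprotein receptor family, the apolipoprotein E receptor 2 (encoded by Lrp8) and the very low density lipoprotein receptor (encoded by Vldlr), and the receptors pass the signal to the cytoplasmic adaptor Dab1, which is phosphorylated by Src family kinases. In the developing hippocampus reelin is released first by Cajal-Retzius cells and later by GABAergic interneurons, whereas the receptors and Dab1 are found in the neurons that respond. The 4 genes Reln, Dab1, Lrp8 and Vldlr were followed through 6 lists of intronic contigs, that is, stretches of intron covered by reads lying close together. Their contigs were chosen by gene symbol, and 138 of the 112345 contigs of the 6 lists belong to them. Of these, 126 lie in Reln, and 3 of the 4 genes were found among the 13686 gene symbols of the lists.

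The study asked which introns leave sequence in cytoplasmic RNA, and compared dendrites with whole cells. Neurons came from primary hippocampal cultures made at embryonic day 18, from C57BL/6 mice and from Sprague-Dawley rats. Dendrites were cut from them by hand and collected in batches, and a soma library is 1 dissected cell body, nucleus included. Brown adipose tissue (BAT) cells came from the interscapular fat of CD-1 mice at embryonic day 17.5 and were recognised by shape in culture. Cardiomyocytes were sorted by flow from ventricles at embryonic day 14.5, from C57BL/6 animals that carry the Fucci mAG-hGem probe, a cell cycle reporter under the CMV promoter, in hemizygous form. Every sample went through 3 rounds of aRNA amplification, which starts from a primer that joins poly(T) to the promoter of T7 polymerase. The authors pooled the libraries of a condition into 1 list, by the labels 3 for mouse dendrites, 3 for mouse somas, 2 for rat dendrites, 3 for rat somas, 6 for BAT cells and 9 for cardiomyocytes. For the last pair of conditions the study describes fewer cells, and which of their libraries entered the lists is not known. No value per library can therefore be given, no comparison below has replicates, and no test was made. The intervals printed are exact 95% intervals that cover counting error only, since reads of amplified RNA are not independent molecules.

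The lists hold between 1007530 reads (rat dendrites) and 17858440 reads (BAT cells). A read count belongs to an intron and was taken once, and levels are given as reads per 1000000 listed reads (RPM). A gene without a contig is called not listed, because the authors filtered the introns (for predicted genes and for poly(A) sites, among others) before the lists were made, and a missing gene is therefore no evidence of missing RNA. Of the fixed marker lists, 9 of 10 brown fat markers were listed in BAT cells (8382 RPM in sum) and 9 of 12 cardiomyocyte markers in cardiomyocytes (30070 RPM). Of 10 neuronal markers, 7 and 9 were listed in mouse dendrites and somas (1591 and 8182 RPM) and 3 and 4 in rat dendrites and somas (1639 and 8507 RPM). Markers were not exclusive to their own lists, for BAT cells also held 7 of 12 cardiomyocyte markers (2868 RPM) and 7 of 10 neuronal markers (1837 RPM). Mouse dendrites held 7 of 9 glial markers (972 RPM, of which Aldh1l1 gave 2826 of 2999 reads), 7 of 12 cardiomyocyte markers (804 RPM) and 7 of 10 brown fat markers (429 RPM).

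Reln lies on the reverse strand of chromosome 5 in the mouse genome (NCBIM37, mm9), from 21391068 to 21850508, and the matching annotated transcript spans 459 kb with 63 introns. All 117 mouse contigs of Reln lie inside the annotated intron of the number that the lists give. Dab1 lies on chromosome 4 (104040195 to 104417449, forward strand, 14 introns) and Vldlr on chromosome 19 (27291847 to 27328721, forward strand, 18 introns), and their 5 and 4 mouse contigs likewise fall in the introns named. Lrp8 is annotated on chromosome 4 (107474866 to 107546772, forward strand) and was not listed in any of the 6 lists. Rat positions are on rn4, for which no genome was used here, so rat introns are known by number only.

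The sequences below are the Reln contigs that carry the most reads in mouse somas, BAT cells and cardiomyocytes among those of at most 300 nt that stand alone in their intron. They are read from NCBIM37 on the strand of the gene, 5′ to 3′, and show the kind of sequence that was counted. The contig of mouse somas in intron 40 (chr5:21472197-21472456, reverse strand) carried 18 reads.
mouse somas, Reln intron 40: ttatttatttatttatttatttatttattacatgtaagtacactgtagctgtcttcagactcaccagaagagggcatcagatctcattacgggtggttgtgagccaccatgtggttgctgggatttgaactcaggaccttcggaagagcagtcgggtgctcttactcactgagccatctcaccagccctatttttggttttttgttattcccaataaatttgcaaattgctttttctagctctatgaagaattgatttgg
The contig of BAT cells in intron 38 (chr5:21477125-21477338, reverse strand) carried 196 reads.
BAT cells, Reln intron 38: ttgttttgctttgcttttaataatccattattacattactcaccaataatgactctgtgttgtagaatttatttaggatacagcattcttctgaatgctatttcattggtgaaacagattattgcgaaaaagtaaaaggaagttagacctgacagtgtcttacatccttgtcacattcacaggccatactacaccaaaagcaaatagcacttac
The contig of cardiomyocytes in intron 28 (chr5:21499684-21499783, reverse strand) carried 1 read.
cardiomyocytes, Reln intron 28: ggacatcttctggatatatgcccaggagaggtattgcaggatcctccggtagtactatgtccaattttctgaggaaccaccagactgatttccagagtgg
None of them is the intron with the most reads of its list, whose contigs are longer or several.

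Summed over its introns, Reln stood highest in mouse somas and lowest in cardiomyocytes. Mouse somas held 22210 Reln reads (11970 RPM, interval 11813 to 12129), rat dendrites 2174 reads (2158 RPM, 2068 to 2250) and mouse dendrites 5722 reads (1854 RPM, 1806 to 1903). BAT cells followed with 8162 reads (457 RPM, 447 to 467), rat somas with 873 reads (417 RPM, 390 to 445) and cardiomyocytes with 8 reads (0.656 RPM, 0.283 to 1.29). No neighbours in this order have intervals that overlap, but without values per library the spread between libraries is unknown. Among genes Reln ranked 4th by reads of the 5895 genes in mouse somas and 1st by the number of listed introns. Its rank by reads was 47 of 8607 genes in mouse dendrites, 71 of 4485 in rat dendrites, 524 of 3393 in rat somas, 525 of 10220 in BAT cells and 4871 of 6205 in cardiomyocytes.

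**Figure D1:**
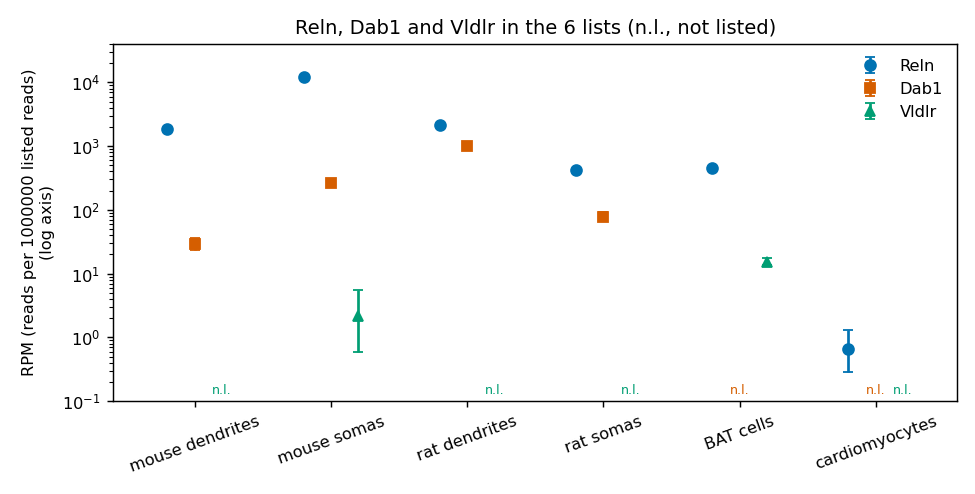
RPM (log axis) of Reln, Dab1 and Vldlr in each of the 6 pooled lists. Points are the pooled values, bars are exact 95% counting intervals, many of them smaller than the point, and n.l. marks a gene that was not listed. Reln stands highest at 11970 RPM in mouse somas and lowest at 0.656 RPM in cardiomyocytes.

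Dab1 was listed in the 4 neuronal lists and in neither BAT cells nor cardiomyocytes. It held 1018 reads in rat dendrites (1010 RPM, 949 to 1074), 493 in mouse somas (266 RPM, 243 to 290), 164 in rat somas (78.3 RPM, 66.8 to 91.2) and 90 in mouse dendrites (29.2 RPM, 23.4 to 35.8). Vldlr was listed in BAT cells with 274 reads (15.3 RPM, 13.6 to 17.3) and in mouse somas with 4 reads (2.16 RPM, 0.587 to 5.52). Per kb of listed contig, Reln stood at 572 reads in mouse somas and Dab1 at 367, in mouse dendrites at 525 and 212, in rat somas at 469 and 188, and in rat dendrites at 1326 and 1576. The ligand thus led the adaptor per length in 3 of the 4 neuronal lists, and the adaptor led in rat dendrites. On this scale in RPM per kb, Reln stood highest in rat dendrites (1317) and not in mouse somas (308), with mouse dendrites at 170. In BAT cells Reln stood at 1103 reads per kb of contig and Vldlr at 408. A deeply covered intron, with log2 reads of at least 8, was found in Reln in every list except cardiomyocytes and in Dab1 in mouse somas and rat dendrites. Such an intron was found for 23.5% of all listed genes in mouse dendrites, 18.7% in mouse somas, 15.8% in rat dendrites, 30.4% in rat somas, 40.2% in BAT cells and 42.9% in cardiomyocytes.

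Between dendrites and somas, the ligand and the adaptor stood in opposite orders in the 2 species. In mouse, Reln was 6.46-fold lower in dendrites than in somas in RPM (ratio 0.155, interval 0.150 to 0.159) and Dab1 was 9.11-fold lower (ratio 0.110, 0.0867 to 0.138). The Reln ratio ranged with the counting from 0.0153 to 0.266 and was below 1 in every alternative. The lowest value is for introns with a contig of at most 400 nt, each counted with all its reads. Under that rule intron 8 of dendrites (2889 reads) fell out, while intron 8 of somas (930 reads) stayed. The highest value is without introns on annotated exons. Per kb of contig the lists stood closer, at the 170 and 308 RPM given above. In rat, Reln was 5.18-fold higher in dendrites (4.78 to 5.61) and Dab1 12.9-fold higher (10.9 to 15.3). Differences of at least 2-fold were common in these lists. Among genes with at least 32 reads over both mouse lists, 29.2% were at least 2-fold higher in somas and 58.3% at least 2-fold higher in dendrites, and in rat 52.2% were at least 2-fold higher in dendrites and 38.1% in somas. The median ratio of dendrites to somas over genes in both lists was 1.38 in mouse and 1.26 in rat. Of 866 genes found in all 4 neuronal lists with enough reads, 143 (16.5%) were, like Reln and Dab1, at least 2-fold higher in mouse somas and in rat dendrites. In RNA pooled over cut dendrites or single cells, fewer contributing cells and less RNA per cell cannot be told apart.

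The rat direction of Reln rests on 1 intron. Intron 4 (chromosome 4, 8374642 to 8374908 on rn4) held 2072 of the 2174 Reln reads of rat dendrites, or 95.3%, and was not listed in rat somas. Without the most read intron of each rat list, the ratio of dendrites to somas was 0.601, below 1. The rat dendrite list otherwise held intron 55 with 98 reads and introns 22 and 42 with 2 reads each. Rat somas held intron 40 with 520 reads, intron 2 with 248, intron 11 with 88, intron 63 with 15 and intron 50 with 2. The 2 rat lists therefore had no Reln intron in common. How many other genes listed in both had none in common was not counted, so this cannot be read as particular to Reln. The paper reports that even biological replicates shared only a part of the retained introns of their common genes. All 9 rat introns carry a number that was also listed in mouse, the 4 of rat dendrites all in BAT cells and the 5 of rat somas all in mouse somas. Dab1 had no intron in common between the rat lists either, and the same limit holds. It had intron 2 alone in rat dendrites (1018 reads) and introns 7 and 8 in rat somas (100 and 64 reads).

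In mouse, dendrites and somas shared 14 Reln introns, 77.8% of the 18 listed in dendrites and 51.9% of the 27 listed in somas. Over those 14 introns the dendrites held 5496 reads and the somas 13703, a ratio of 0.241 in RPM (0.234 to 0.249). The difference was uneven along the gene. In 10 of the 14 introns the interval lay below 1, in 3 above 1, and intron 13, with 2 reads in each list, could not be placed. Intron 38 held 1475 reads in dendrites and 10 in somas, a ratio of 88.7 (48.1 to 185). Intron 8 held 2889 reads in dendrites and 930 in somas (ratio 1.87, 1.73 to 2.01), and intron 63 held 765 and 273 (ratio 1.68, 1.47 to 1.94). These 3 introns gave 89.6% of the Reln reads of dendrites. At the other end, intron 1 held 39 reads in dendrites and 3968 in somas, intron 42 held 8 and 1760, and intron 36 held 2 and 819. The 13 introns listed in somas alone carried 8507 reads, 38.3% of the Reln reads of somas, and the 4 listed in dendrites alone carried 226, 3.95% of those of dendrites. For Dab1, intron 12 was listed in both with 90 reads in dendrites and 43 in somas, a ratio of 1.26 with an interval that holds 1 (0.866 to 1.85). The Dab1 excess of somas came from intron 11, with 450 reads and no listing in dendrites.

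**Figure D2:**
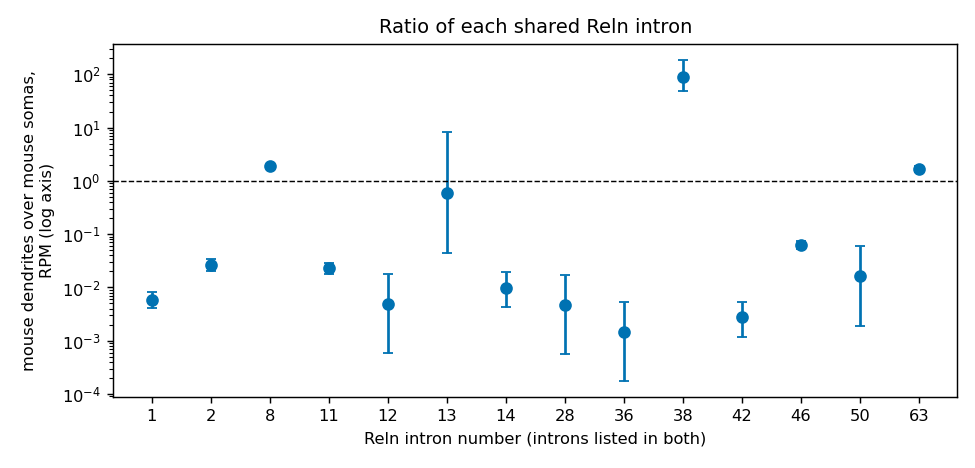
Ratio of mouse dendrites to mouse somas in RPM (log axis) for each of the 14 Reln introns listed in both. Bars are exact 95% counting intervals and the dashed line marks a ratio of 1. Introns 8, 38 and 63 stand above the line. Introns 1, 11 and 42, the most read in somas among the 14, stand far below it. Intron 25, which leads in somas, is not listed in dendrites and is not shown.

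Each list had its own leading Reln intron. Intron 8 led in mouse dendrites (2889 reads, 50.5% of the Reln reads), intron 25 in mouse somas (4952 reads, 22.3%), intron 22 in BAT cells (5422 reads, 66.4%), intron 4 in rat dendrites and intron 40 in rat somas (520 reads, 59.6%). Cardiomyocytes held 7 reads in intron 63 and 1 in intron 28. Intron 8 was also deeply covered in mouse somas (930 reads) and was listed nowhere else, and intron 63 held more reads in mouse dendrites (765) and mouse somas (273) than in cardiomyocytes. Introns 25, 22 and 4 held few or no reads in the other lists. Intron 25 was listed in mouse somas only, intron 22 held 31 reads in mouse dendrites, 2 in rat dendrites and none listed in mouse somas, and intron 4, the leader of rat dendrites, held 2 reads in mouse somas and 66 in BAT cells. Coverage was most even in mouse somas, where the 3 leading introns gave 49% of the reads and 14 introns were deeply covered. The 3 leading introns gave 91.2% in BAT cells, 98.1% in rat somas and 99.9% in rat dendrites.

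**Figure D3:**
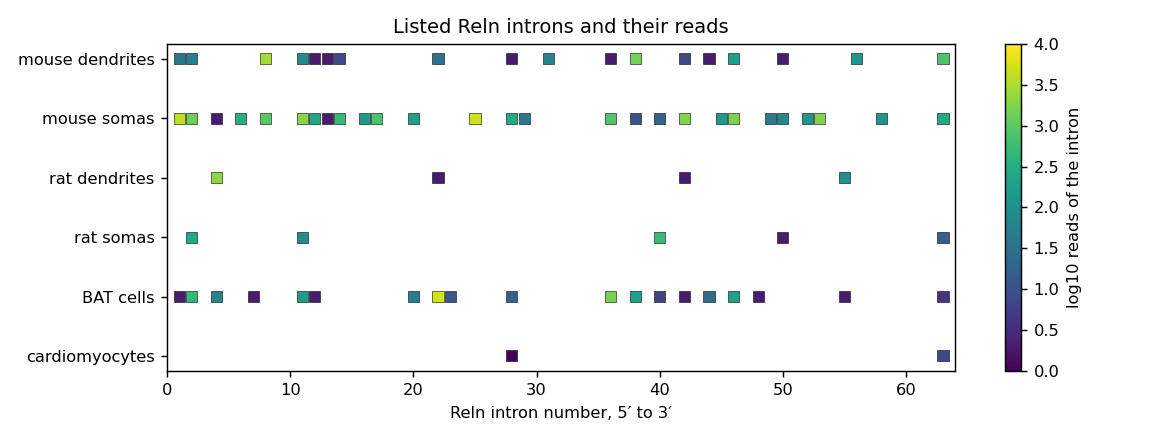
Listed introns of Reln by intron number, counted from the 5′ end, in the 6 lists. Each square is a listed intron and its shade is the log10 of the reads of that intron. Mouse somas fill the gene most evenly, with 27 introns, and no intron is marked in both rat dendrites and rat somas.

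Of the 63 Reln introns, 35 were found in at least 1 list and 28 in none. The listed introns were longer, with a median of 4516 nt against 1171 nt for those never listed. Intron 63 was found in 5 lists, 4 introns in 4 lists, 9 in 3, 6 in 2 and 15 in a single list, and introns 28 and 63 were in all 4 mouse lists. Mouse somas listed 27 of the 63 introns (42.9%, exact binomial interval 30.5 to 56), BAT cells 19 (30.2%, 19.2 to 43.0), mouse dendrites 18 (28.6%, 17.9 to 41.3) and cardiomyocytes 2 (3.17%, 0.387 to 11). The first 3 of these intervals overlap, and that of cardiomyocytes lies below them. The order depended on contig length. With contigs of at most 400 nt alone, BAT cells listed 16 introns, mouse somas 13 and mouse dendrites 10, and with that limit outside dendrites only, the 13 of somas stood below the 18 of dendrites. Counted over the longest annotated transcript, Reln ranked 1st by the share of introns listed among the 217 genes with at least 40 introns in mouse somas, where the median gene listed 4.55%. It ranked 9th of 277 such genes in mouse dendrites (median 9.41%), 26th of 287 in BAT cells (median 12.3%) and 152nd of 212 in cardiomyocytes (median 6.19%). Introns 1 to 31 make up 80.2% of the intron sequence of the mouse gene. They gave 69.8% of the Reln reads of mouse somas, 75.6% of those of BAT cells, 55.4% of those of mouse dendrites and 95.4% of those of rat dendrites, but 38.5% in rat somas and 12.5% in cardiomyocytes.

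**Figure D4:**
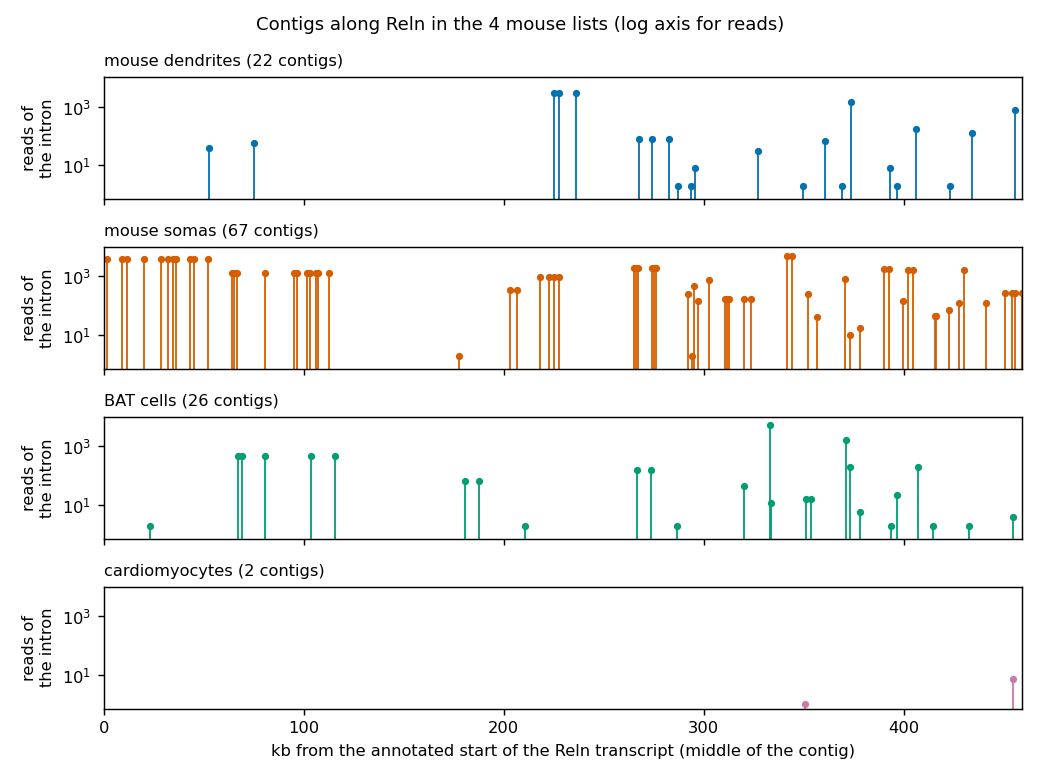
Contigs along Reln in the 4 mouse lists, placed by the distance of their middle from the annotated start of the transcript (kb). The height is the read count of the intron (log axis), which is the same for every contig of an intron. The 67 contigs of mouse somas run over the whole gene, and cardiomyocytes have 2 contigs.

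Most contigs covered a small piece of their intron. The median length was 395 nt in mouse dendrites (201 to 1732), 478 nt in mouse somas (62 to 1793) and 207.5 nt in BAT cells (115 to 850), or 2.56% of the intron over all 117 mouse contigs. Of the 117, 12 spanned over 25% of their intron, 7 of them in mouse somas, 4 in mouse dendrites and 1 in BAT cells. The widest were 1 contig of mouse somas in intron 14 (708 nt, 93.5% of the intron) and those of mouse dendrites in intron 38 (chromosome 5, 21475910 to 21477641, 1732 nt, 70.3%) and intron 56 (462 nt, 66.4%). With each intron cut into 3 equal parts, 45 contigs had their middle in the 5′ part, 39 in the central part and 33 in the 3′ part. The contigs of introns 8 and 22 show how lists differ inside an intron. In intron 8, mouse dendrites had 3 contigs (21613836 to 21614658, 21622485 to 21622893 and 21624689 to 21625639) and mouse somas 4, of which 2 overlapped those of dendrites. In intron 22, the contig of BAT cells (21516993 to 21517842) and that of mouse dendrites (21522540 to 21523775) lay apart.

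Part of the Reln coverage lies on other annotation. In 5 introns (1, 16, 25, 42 and 63) a mouse contig touched an annotated exon. The larger contig of the leading soma intron 25 (21508182 to 21509728) covered 878 nt of the last exon of an annotated Reln transcript with a retained intron, whose exon runs from 21508851 to 21510060. A contig of soma intron 1 (21848828 to 21849104) lies wholly inside an exon of 2 short annotated Reln transcripts, and another (21840797 to 21841991) lies on the antisense gene Gm16110. In intron 42 of somas, the contig from 21456844 to 21458636 covers the pseudogene Dnaja1-ps and touches an exon of the antisense gene Gm10475. The other soma contig of that intron (21459969 to 21460789) lies on neither, and the 1760 reads of the intron are not divided between them. In intron 63, 1 of the 4 soma contigs and the single contigs of BAT cells and cardiomyocytes overlap the pseudogene Gm16111 (21395598 to 21395882, forward strand), and this intron holds 7 of the 8 Reln reads of cardiomyocytes. Gm10475 (21416749 to 21459832, forward strand) spans contigs of introns that hold 24.6% of the Reln reads of mouse somas, 3.18% of those of mouse dendrites and 2.67% of those of BAT cells. Reads were not separated by strand, so reads of Reln and of a gene on the other strand cannot be told apart. With the 5 introns left out, a choice made after the values were seen, Reln was still lower in mouse dendrites than in somas, with a ratio of 0.266.

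Reln contigs of different mouse lists met more often at the 3′ end than at the 5′ end. There were 25 overlapping pairs of contigs from different lists, and their 3′ ends lay within 50 nt of each other in 10 pairs (40%) and their 5′ ends in 2 (8%). Over 21120 overlapping pairs of other genes, the shares were 49.2% and 37.2%. In intron 42 the contigs of mouse dendrites, mouse somas and BAT cells had 417, 1793 and 167 nt and ended within 6 nt of each other. Some of these ends rest on few reads. Intron 42 held 8 reads in dendrites and 2 in BAT cells, and intron 63 held 4 in BAT cells and 7 in cardiomyocytes. In dendrites 10 of 22 Reln contigs overlapped a Reln contig of another mouse list (45.5%, against 28.3% of all contigs of that list), in BAT cells 10 of 26 (38.5%, against 24.7%), in cardiomyocytes 1 of 2 (50%, against 46.2%), and in somas 16 of 67 (23.9%, against 47.5%). Dab1 had 1 overlapping pair, in intron 12 of mouse dendrites and somas, whose 5′ ends lay 181 nt and 3′ ends 149 nt apart. Vldlr had 1 overlapping pair, in which the contigs of mouse somas (27311718 to 27311966) and BAT cells (27311767 to 27311985) in intron 4 began 49 nt apart and ended 19 nt apart.

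**Figure D5:**
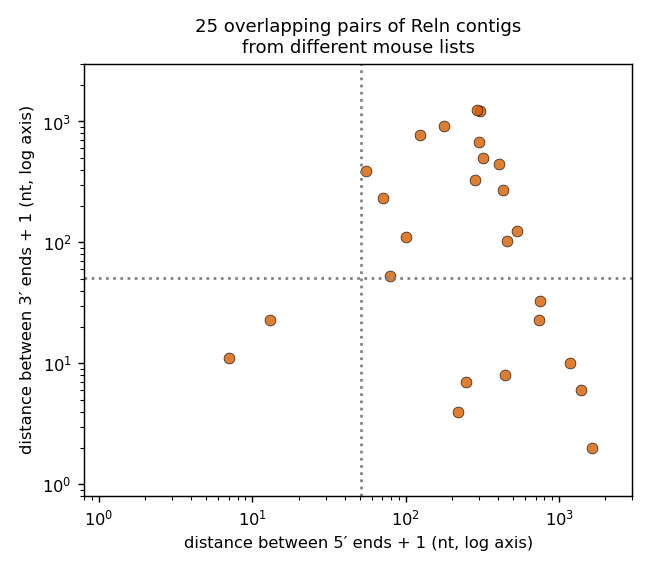
Distance between the 5′ ends (x axis) and between the 3′ ends (y axis) of the 25 overlapping pairs of Reln contigs from different mouse lists, each in nt plus 1 on log axes. The dotted lines mark 50 nt. In 10 pairs the 3′ ends lie below the horizontal line, and 2 of these also lie left of the vertical line.

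At 4 of the places where Reln contigs of several lists ended within 50 nt, the sequence is shown with 40 bases up to the first end and 80 bases past the last one, on the gene strand, with runs of at least 6 adenines in capitals. These places were chosen after the ends were seen, to show what the shared ends look like. In intron 2 (chr5:21769490-21769612, reverse strand) the contigs of BAT cells and somas end at bases 40 and 43 of the line.
Reln intron 2: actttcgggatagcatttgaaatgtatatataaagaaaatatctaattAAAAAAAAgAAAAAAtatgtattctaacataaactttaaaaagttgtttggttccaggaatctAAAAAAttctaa
In intron 14 (chr5:21554633-21554759, reverse strand) those of somas and dendrites end between bases 40 and 47.
Reln intron 14: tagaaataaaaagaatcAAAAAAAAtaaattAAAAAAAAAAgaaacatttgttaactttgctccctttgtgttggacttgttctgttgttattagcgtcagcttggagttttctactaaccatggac
In intron 38 (chr5:21477045-21477186, reverse strand) those of somas and BAT cells end between bases 40 and 62.
Reln intron 38: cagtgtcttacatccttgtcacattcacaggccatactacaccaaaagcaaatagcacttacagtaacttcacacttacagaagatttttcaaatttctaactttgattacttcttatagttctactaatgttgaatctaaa
In intron 63 (chr5:21395520-21395671, reverse strand) those of somas, BAT cells and cardiomyocytes end between bases 40 and 72.
Reln intron 63: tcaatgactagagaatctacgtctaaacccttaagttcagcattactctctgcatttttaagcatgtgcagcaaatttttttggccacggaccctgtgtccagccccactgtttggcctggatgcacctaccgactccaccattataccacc
In these lines a run of 6 or more adenines stands close to the ends in introns 2 and 14 and not in introns 38 and 63. Not every such place is printed, so the lines give no share.

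Such runs were counted for all mouse contigs, within 40 nt on either side of an end. Of the 117 Reln contigs, 48 (41.0%) had a run of at least 6 adenines at the 3′ end and 5 (4.27%) at the 5′ end, against 26.6% and 4.55% of all 97721 mouse contigs. By list, the 3′ share for Reln was 55.2% of 67 contigs in mouse somas (all contigs of that list, 39.2%), 31.8% of 22 in mouse dendrites (26.6%), 15.4% of 26 in BAT cells (21.2%) and 0 of 2 in cardiomyocytes. Among the 14 contigs with a 3′ end shared between lists, 9 had such a run there, but the 14 end at 6 places, and contigs with a common end share the same bases and are not separate observations. The excess at the 3′ end over the 5′ end was thus found over all contigs as well as in Reln. Longer runs downstream were seen at smaller shares for Reln than over all contigs. A tract of at least 10 adenines within 300 nt downstream was found for 6 of 67 contigs in mouse somas (8.96%, against 18.6% of all), 1 of 22 in dendrites (4.55%, against 8.11%) and none of 26 in BAT cells (against 7.36%). The first strand in aRNA amplification is primed by poly(T), and the part of such priming in these ends was not tested.

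Outside neurons, the ligand and the receptor Vldlr were listed in BAT cells, in cardiomyocytes Reln was listed with few reads and Vldlr was not listed, and Dab1 and Lrp8 were listed in neither. Reln stood 697-fold higher in BAT cells in RPM, with a wide interval (354 to 1615) because cardiomyocytes hold 8 reads, and 60.8% of genes with at least 32 reads over both lists were at least 2-fold higher in BAT cells and 28.2% in cardiomyocytes. The size of this ratio depended on the introns counted. It was 74.3 for introns with a contig of at most 400 nt, 1872 without the most read intron of each list and 5571 without introns on annotated exons. Both of the latter rest on 1 cardiomyocyte read, in intron 28. Vldlr, which in fat and muscle takes part in the uptake of triglyceride-rich lipoproteins, had 210 reads in intron 2 and 64 in intron 4 in BAT cells and was not listed in cardiomyocytes. In sum, the neuronal markers listed in BAT cells (7 of 10, 1837 RPM) and in cardiomyocytes (2 of 10, 373 RPM) moved the same way as Reln. Camk2a went the other way, with 1 read in BAT cells and 4505 in cardiomyocytes (369 of the 373 RPM). The part of these markers in the level of Reln was not tested.

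Markers of the cells known to make reelin also differed between the lists. Of 12 markers of inhibitory neurons, 4 were listed in mouse somas with a sum of 30324 RPM. Among them were Gad1 (45716 reads, 45674 of them in 1 intron) and Gad2 (4322 reads), the enzymes of GABA synthesis. In mouse dendrites 3 were listed with 1069 RPM, of which Erbb4 gave 881, and Gad1 was not listed. In rat somas 7 were listed with 509 RPM and in rat dendrites 2 with 299 RPM. The lists with many Reln reads and with many reads of these markers therefore coincide in mouse somas but not in rat dendrites. BAT cells held 4 (719 RPM, of which Erbb4 gave 706) and cardiomyocytes 2 (4889 RPM), with 59649 reads from Erbb4. Erbb4 is a neuregulin receptor that cardiomyocytes also express. Of the 5 markers of Cajal-Retzius cells, none was listed in mouse dendrites, mouse somas or rat somas, and rat dendrites held 1 with 2 reads. BAT cells held 2 of them with 173 reads and cardiomyocytes 1 with 12 reads. The part of these cell types in the Reln values was not tested.

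The wider pathway was followed with 68 genes fixed by role, of which 63 were found in a list. In mouse, 36 of them had at least 32 reads over dendrites and somas, and 18 (50.0%) were at least 2-fold higher in dendrites and 11 (30.6%) in somas, beside the 58.3% and 29.2% of all genes. In rat the counts were 12 (42.9%) and 14 (50.0%) of 28, beside 52.2% and 38.1% of all genes, and between BAT cells and cardiomyocytes 20 (47.6%) and 19 (45.2%) of 42, beside 60.8% and 28.2%. The median log2 ratio over pathway genes listed in both was 0.32 in mouse, -2.36 in rat and -1.87 between BAT cells and cardiomyocytes, where that of all genes was 0.47, 0.33 and 0.33. The rat median lay below 0, whereas Reln and Dab1 stood higher in rat dendrites.

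Among ligands and proteases, Adamts2, a protease that cuts reelin, had 13786 reads in rat somas (6582 RPM) and 983 in mouse dendrites (318 RPM). Of the other receptors of the family, Lrp1b, a large receptor with many long introns, was listed with 32 introns and 10075 reads in mouse dendrites (3264 RPM), 22 introns and 8004 reads in mouse somas (4314 RPM) and 26 introns and 45966 reads in BAT cells (2574 RPM). All 7 members of this group were listed in mouse dendrites, mouse somas and BAT cells, where Lrp8 was not. Vldlr was listed in mouse somas and BAT cells but not in mouse dendrites, and in BAT cells its 274 reads stood above those of Lrp5 (11) and Lrp6 (100).

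Of the kinases that phosphorylate Dab1, Fyn had 19260 reads in rat somas (9195 RPM), almost all in 1 intron (19190 reads), and 2018 in cardiomyocytes. Downstream of Dab1, the adaptor Crk had 30968 reads in BAT cells (1734 RPM) in 1 intron, and the small GTPase Rap1a 28714 (1608 RPM). Rapgef1, the exchange factor that links them, had 2282 reads in mouse somas (1230 RPM) and 667 in mouse dendrites (216 RPM). In the PI3 kinase branch, Mtor had 824 RPM in mouse somas. Pafah1b1, which encodes the dynein regulator Lis1, had 734 reads in rat dendrites (729 RPM). Of the adhesion and cytoskeletal genes, N-cadherin (Cdh2) had 50899 reads in cardiomyocytes (4172 RPM) and the actin regulator Wasl 16072 (1317 RPM). At the synapse, App, a partner of these receptors, had 10207 reads in cardiomyocytes (837 RPM), 9690 in BAT cells (543 RPM), 4638 in rat somas (2214 RPM), 1343 in mouse dendrites (435 RPM), 1218 in mouse somas (656 RPM) and 358 in rat dendrites (355 RPM). Grin1, the obligatory subunit of the NMDA receptor, had 626 reads in mouse somas (337 RPM).

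The genes whose pattern was nearest to that of Reln over the 6 lists were found by distance. Among 305 genes with at least 32 reads in each of the 5 lists where Reln has that many, the 5 nearest by Euclidean distance in log2(RPM + 1) included Herc2 (distance 4.08), Kcnt2 (4.59), Ppfia2 (5.25) and Pclo (5.35). Herc2, a large ubiquitin ligase gene, stood at 692 RPM in mouse dendrites, 2295 in mouse somas, 1193 in rat dendrites, 1090 in rat somas, 139 in BAT cells and 4.92 in cardiomyocytes. It shared with Reln the rank of mouse somas over mouse dendrites and the low value in cardiomyocytes, and like Kcnt2, Ppfia2 and Pclo it stood below Reln in mouse somas.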

How the data were processed

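Intronic reads were analysed as 6 pooled lists. The labels name 26 libraries, and which BAT and cardiomyocyte libraries entered is not known. The authors aligned the reads to mm9 or rn4, kept unique intronic reads, removed introns with predicted genes, poly(A) sites or Rfam RNAs, and joined reads at most 500 nt apart into contigs. The deposited values are raw read counts per intron, pooled over libraries and repeated on each contig, and 0 of 15282 introns with several contigs carried more than 1 count. Counts were taken once per transcript and intron, joined by symbol and scaled to 1000000 reads of the list (RPM). Start positions were shifted by 1. Every contig length was kept. Library depth bounds the precision, and no list gives it per library.

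Ratios carry exact conditional binomial 95% intervals, shares exact binomial intervals and levels exact Poisson intervals, and the interval code was tested on simulated data. Genes were called at 2-fold in RPM with at least 32 reads over both lists. Tools were Python 3.11.15, pandas 2.3.3, numpy 2.4.6, scipy 1.17.1 and matplotlib 3.10.9. Mouse introns came from GENCODE vM1 on NCBIM37. Named genes were the members, at most 8 pathway genes a list with a deeply covered intron (log2 reads of at least 8), and the 5 genes nearest to Reln. Members, lists and rules were chosen with earlier results of these data known. Some genes and sequences that these rules select are not reported here. Columns of other samples numbered 0. Alternatives are given in the closing section.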

Additional observations from a re-analysis of the deposited data

Results flagged for a closer look

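The ratio of dendrites to somas in RPM pointed one way in mouse and the other way in rat, for both the ligand and the adaptor. For Reln it was 0.155 in mouse and 5.18 in rat, and for Dab1 it was 0.11 in mouse and 12.9 in rat. Without the most read intron of each list the rat Reln ratio was 0.601, and rat dendrites listed Dab1 in intron 2 alone. Each species has 1 pooled list per compartment, so the difference between the species was not tested.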

How the results depend on the processing

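Libraries could not be left out in turn, since every list pools those of its condition, and no count per library stands behind any value. No paired analysis was possible because the lists carry no replicate numbers. Of 97 alternatives to 31 values, 47 left the value in place (a ratio within its counting interval, a count or share within 1.5 times of it), 49 moved it further and 1 turned its direction: without the most read intron of each list, the rat Reln ratio of dendrites to somas was 0.601. The cause was not tested. The mouse Reln ratio was 0.215 when scaled by the reads of the libraries and 0.258 unscaled. It was 0.144 with the 10 top genes out of the totals and 0.0987 without the most read introns. For introns with a contig of at most 400 nt, each counted with all its reads, it was 0.0153. Without introns on annotated exons, which was tried once the values were known, it was 0.266. The mouse Dab1 ratio was 0.153 by library reads and 0.183 unscaled. The rat Reln ratio was 3.8 by library reads, 2.49 unscaled and 6.14 for introns with a contig of at most 400 nt. The rat Dab1 ratio was 9.47 and 6.21 on the first 2 scales. The Reln ratio of BAT cells to cardiomyocytes was 74.3 for introns with a contig of at most 400 nt. It was 1872 without the most read introns and 5571 without introns on exons.

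Listed Reln introns fell with a limit of 400 nt to 10 in mouse dendrites, 13 in mouse somas and 3 in rat somas, below the 16 of BAT cells. At a minimum of 4 reads they numbered 2 in rat dendrites and 1 in cardiomyocytes, at 32 reads 9 in mouse dendrites, 2 in rat dendrites, 3 in rat somas, 8 in BAT cells and 0 in cardiomyocytes, and counting deeply covered introns alone 3, 14, 1, 1, 3 and 0 in mouse dendrites, mouse somas, rat dendrites, rat somas, BAT cells and cardiomyocytes. Without introns on exons cardiomyocytes kept 1. At a minimum of 32 reads, 62.4%, 54.1%, 48.6%, 55.1%, 67.9% and 64.8% of genes passed in the same order. Within 500 nt, 2 Reln contigs of cardiomyocytes met another list. Tracts of 6 adenines followed 2 of 22 Reln contigs in dendrites (9.09%, against 25.9% of all contigs), 29 of 67 in somas (43.3%, against 40.6%) and 3 of 26 in BAT cells (11.5%, against 25.3%). Those of 8 followed 12 in somas (17.9%, against 25.2%) and 1 in BAT cells (3.85%, against 11.6%). Within 1000 nt, tracts of 10 followed 2 in dendrites (9.09%, against 14.2%) and 2 in BAT cells (7.69%, against 13.1%).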
